A study of Mus musculus with 39 samples.

Results

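The genes that carry macrophages through the G1 phase of the cell cycle were followed in 2 sorted populations of the embryonic mouse brain, border-associated macrophages (BAM) of the meninges and other border spaces, and microglia, the macrophages of the brain tissue itself. The 10 genes were chosen by name and role, with earlier results of these data known. They were the D cyclins Ccnd1, Ccnd2 and Ccnd3, the E cyclin Ccne1, the kinases Cdk4 and Cdk6, the inhibitors Cdkn1a, Cdkn1b and Cdkn2c, and Rb1. All 10 were found among the 53379 genes of the count table, and all 10 passed the filter that left 22061 genes for testing. Each group was sorted by flow cytometry from brains of C57Bl/6 embryos of timed matings, with the plug day counted as E0.5, and the labels name no treatment and no altered allele in any group. BAM gave 4, 3, 3, 3, 3 and 4 libraries at E10.5, E11.5, E12.5, E14.5, E16.5 and E18.5 (n = 20), and microglia gave 4, 3, 3, 2, 3 and 4 (n = 19). Neither the gates of the sort nor the litters behind the replicates are stated in the labels, and p-values therefore measure the spread between samples that may share a litter.

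D cyclins are made in response to growth factors and activate Cdk4 and Cdk6, which phosphorylate the retinoblastoma protein encoded by Rb1. Phosphorylated retinoblastoma protein releases E2F transcription factors, and cyclin E with Cdk2 then drives entry into S phase. Inhibitors act at both steps: Cdkn2c encodes p18, an INK4 protein that binds Cdk4 and Cdk6, while Cdkn1a and Cdkn1b encode p21 and p27, CIP/KIP proteins that restrain cyclin E with Cdk2. Brain macrophages enter the embryo's head from the yolk sac and multiply there while they colonise the tissue.

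RNA was amplified from 2 ng of total RNA with a modified SMART-seq2 protocol, in which strand is not recorded, and levels are given as CPM, the count scaled to a common library total. The libraries held 10.7 to 47.2 M counts each (median 22.4 M). Library names formed 2 numbered series: series R10 held every library of E10.5 and of E11.5 plus, per population, 1 from E18.5, and series R8 held the rest, so the step between E11.5 and E12.5 coincides with the change of series. The comparison of E18.5 with E10.5 also sets mostly R8 libraries against R10 libraries. Within series R10 that comparison rests on 1 library of E18.5 per population. The labels were checked against markers: 8 microglia markers summed to 398 to 1573 CPM in BAM libraries and to 1014 to 15091 CPM in microglia, and 8 BAM markers summed to 8277 to 34415 CPM in BAM and to 1836 to 7456 CPM in microglia. The sums of 12 neural markers, among them Fabp7, Tubb3, Dcx and Map2, ran from 62.4 to 1394 CPM in BAM libraries and from 105 to 1488 CPM in microglia, highest at E14.5 in both.

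Averaged over the 6 stages, BAM carried more Ccnd1, Ccnd3 and Rb1, and less Cdk6 and Ccne1, than microglia. In this mean over stages, 5 of the 10 genes were called at an adjusted p under 0.05 by edgeR's quasi-likelihood test with Benjamini-Hochberg adjustment, against 28.2% of all tested genes. Higher in BAM were Ccnd1 (log2 1.20 ± 0.07, adjusted p = 1.47e-16), Ccnd3 (log2 0.46 ± 0.07, adjusted p = 6.27e-07) and Rb1 (log2 0.33 ± 0.11, adjusted p = 0.0229). Lower in BAM were Cdk6 (log2 -0.81 ± 0.05, adjusted p = 5.53e-15) and Ccne1 (log2 -0.29 ± 0.08, adjusted p = 0.00507). The median log2 difference was 0.0819 over the 10 genes and -0.0235 over all tested genes. Errors after ± are standard errors for log2 values and standard deviations over libraries for levels.

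**Figure D1:**
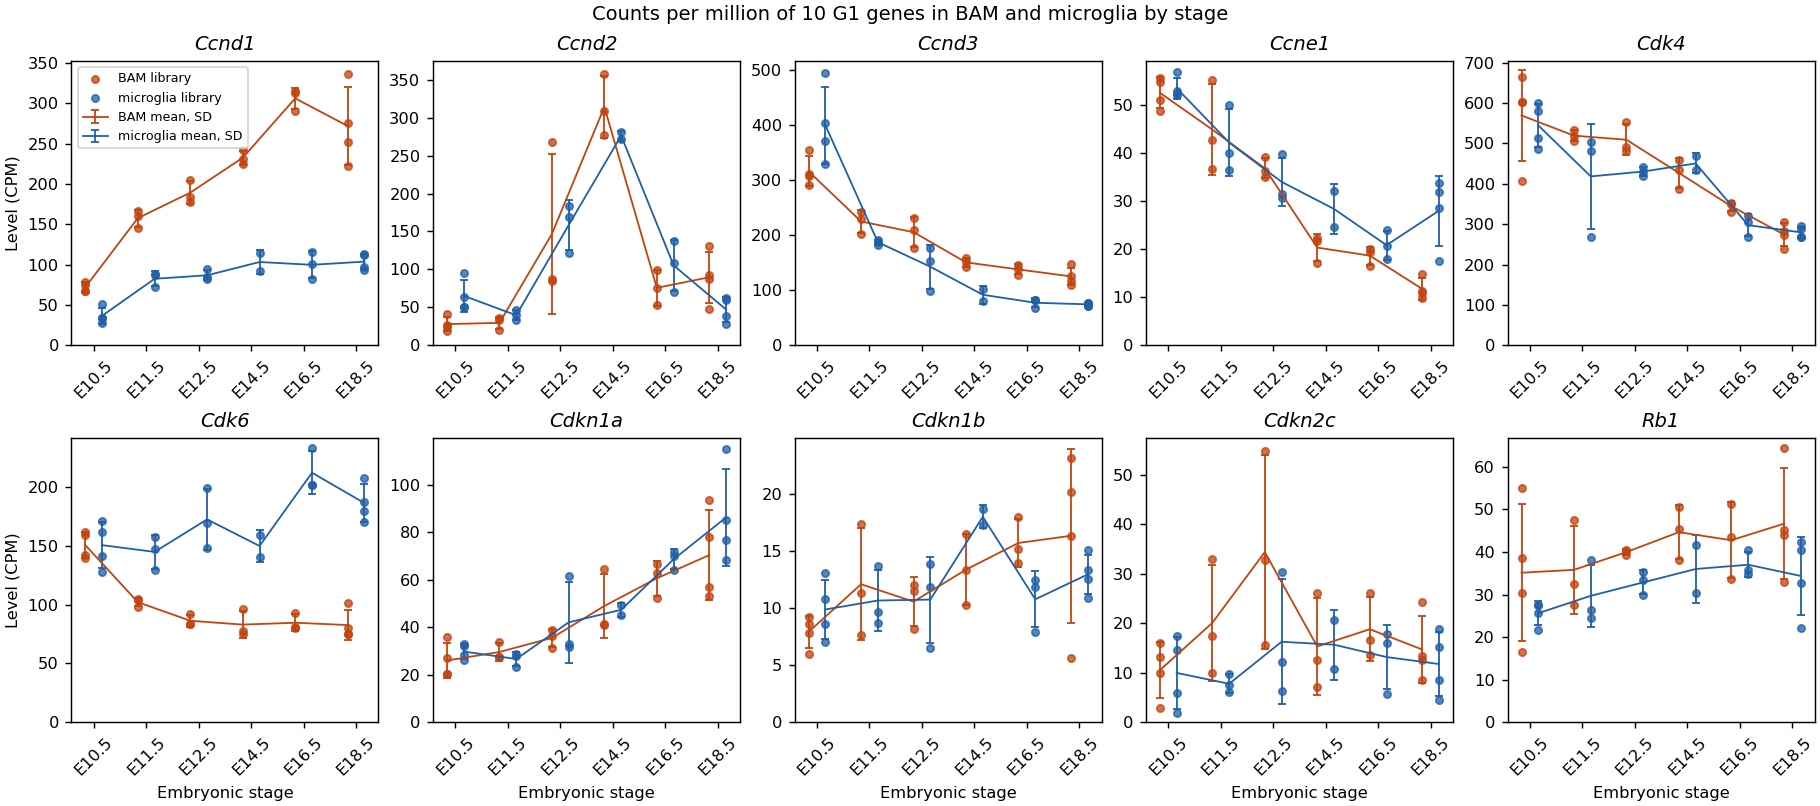
Level of each of the 10 genes in CPM (vertical axes, from 0) at the 6 embryonic stages (horizontal axes), with 1 point per library, BAM in orange left of microglia in blue, and lines through the group means with bars of 1 SD. Ccnd1 climbed to a BAM mean of 272 CPM at E18.5, against 104 CPM in microglia, while Cdk6 ended at 82.7 CPM in BAM and 186 CPM in microglia.

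Ccnd1, which encodes cyclin D1, lies on chromosome 7, 144929931 to 144939925 of GRCm38 and separated the populations at every stage. At E10.5 the BAM libraries had 67.4, 74.9, 78.9 and 66.8 CPM, against 34.1, 27.1, 51.1 and 34.04 CPM in microglia. At E11.5 BAM had 160.3, 167 and 146 CPM and microglia 71.6, 87.0 and 88.6 CPM. At E12.5 BAM had 205, 184 and 178 CPM and microglia 84.6, 93.9 and 81.7 CPM. In each of these 3 stages the lowest BAM library lay above the highest microglia library. At E14.5 the values were 231, 242 and 225 CPM in BAM and 92.5 and 114 CPM in microglia. At E16.5 they were 291, 312 and 315 CPM in BAM and 101, 82.5 and 115 CPM in microglia. At E18.5 they were 337, 222, 252 and 276 CPM in BAM and 113, 93.3, 97.5 and 111 CPM in microglia. The libraries again did not overlap at any of these later stages, and the fold difference was widest at E16.5. The log2 difference was 0.96 ± 0.15 at E10.5, 0.92 ± 0.17 at E11.5, 1.13 ± 0.17 at E12.5, 1.24 ± 0.19 at E14.5, 1.66 ± 0.17 at E16.5 and 1.29 ± 0.15 at E18.5, with adjusted p-values between 2.99e-09 and 0.000254 (edgeR).

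Ccnd1 also rose with age in both populations. BAM averaged 272 ± 48.5 CPM at E18.5, against 72.0 ± 5.87 CPM at E10.5 (SD, n = 4 each; log2 1.89 ± 0.15, adjusted p = 3.6e-12), and microglia averaged 104 ± 9.69 CPM at E18.5, against 36.6 ± 10.2 CPM at E10.5 (log2 1.56 ± 0.15, adjusted p = 2.26e-10). Most of the microglial rise fell in the first step, since at E11.5 microglia were already higher than at E10.5 by 1.20 ± 0.16, and no later single step passed the test in either population over all libraries. The BAM step of Ccnd1 at E16.5 from E14.5 was 0.49 ± 0.17 (adjusted p = 0.219), and it was called with only the compared groups fitted (0.48, adjusted p = 0.0418) and within series R8 (0.55, adjusted p = 0.0172). In BAM the first step was 1.16 ± 0.15, and E18.5 was still higher than E12.5 by 0.58 ± 0.16 (adjusted p = 0.0126). That later change lost its call without BAM E12.5 replicate 1 (0.55), BAM E12.5 replicate 3 (0.51) or BAM E18.5 replicate 1 (0.41), while within series R8 it was 0.43 (adjusted p = 0.0255). The difference between the populations in the change from E10.5 to E18.5 missed the threshold (BAM minus microglia 0.33 ± 0.20, adjusted p = 0.428). Within series R10 alone the E18.5 over E10.5 values were 2.19 in BAM and 1.74 in microglia. Mesenchymal and mural markers rose with age too, with sums of 202 to 709.6 CPM in BAM and 118 to 249 CPM in microglia at E18.5, against 6.57 to 31.7 CPM in BAM and 2.73 to 20.7 CPM in microglia at E10.5. Of the 10 tested, 10 were called higher at E18.5 in BAM and 9 in microglia, 0 differed between the populations as the mean over stages, and Foxc1 was at 0 in all E10.5 libraries. Among all tested genes, 22.8% were called higher in BAM and 20.9% in microglia, and 28.2% were called in the mean over stages. The part of mesenchymal and mural RNA in the Ccnd1 values was not tested. Exons of Ccnd1 share 1100 bases, or 23.4% of their length, with LTO1 on the opposite strand, whose reads cannot be told apart there.

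Ccnd3, which encodes cyclin D3, the D cyclin best known from haematopoietic cells (chromosome 17, 47505051 to 47599691), fell with age in both populations, and fell further in microglia. At E10.5 it had 355, 291, 307 and 310.3 CPM in BAM and 495, 329, 370.2 and 403 CPM in microglia. At E11.5 it had 203, 242 and 229 CPM in BAM and 187, 191 and 183 CPM in microglia. At E12.5 it had 177, 209 and 230.3 CPM in BAM and 98.1, 154 and 176 CPM in microglia. The populations overlapped at E10.5, with 3 of 4 microglia libraries above every BAM library, and stood apart, BAM above, at E11.5 and at E12.5. At E14.5 Ccnd3 had 151, 142 and 159 CPM in BAM and 80.4 and 103 CPM in microglia. At E16.5 it had 128, 139 and 146 CPM in BAM and 67.6, 82.1 and 81.9 CPM in microglia. Its E18.5 values were 110.3, 116, 147 and 127 CPM in BAM and 70.8, 77.0, 77.3 and 72.2 CPM in microglia. BAM libraries lay above all microglia libraries at each of these stages. The log2 difference was -0.35 ± 0.14 at E10.5 (adjusted p = 0.17), 0.24 ± 0.16 at E11.5 (adjusted p = 0.459) and then called at E12.5 (0.55 ± 0.16), E14.5 (0.78 ± 0.19), E16.5 (0.88 ± 0.16) and E18.5 (0.65 ± 0.14). The E12.5 call was lost without BAM E12.5 replicate 2 (0.51), BAM E12.5 replicate 3 (0.47) or microglia E12.5 replicate 1 (0.33), or fitted without the other groups (0.55), and the E14.5 call without microglia E14.5 replicate 1 (0.58).

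Between the ends of the window Ccnd3 fell by 1.37 ± 0.14 on the log2 scale in BAM (adjusted p = 1.76e-09) and fell by 2.37 ± 0.15 in microglia (adjusted p = 1.2e-14). The 2 changes differed by 1.00 ± 0.20 (adjusted p = 0.00086), so the drop was shallower in BAM, although within series R10 that difference was 0.82 (adjusted p = 0.248). For E18.5 over E12.5 the changes were -0.67 ± 0.15 in BAM and -0.78 ± 0.15 in microglia, both called, and their difference was 0.10 ± 0.22 (adjusted p = 0.969). The BAM excess of Ccnd3 was 0.74 as the mean over E12.5 to E18.5 within series R8. As the mean over E10.5, E11.5 and E18.5 within series R10 it was 0.13, not called. The 2 values average different stages, so series and stage cannot be told apart in them. Erythroid markers, from another lineage that expresses Ccnd3, summed to 143 to 304 CPM in BAM and 576 to 709 CPM in microglia at E12.5 and to 112 to 216 CPM in BAM and 166 to 256 CPM in microglia at E18.5; 0 of 10 were called higher in BAM and 6 lower as the mean over stages. In that mean 28.2% of all tested genes were called in either direction. The part of erythroid RNA in the Ccnd3 values was not tested. The table also holds a row for the pseudogene Ccnd3-ps, with which reads could be shared, and 361 bases of Ccnd3 exons overlap Bysl on the opposite strand.

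Ccnd2, which encodes cyclin D2 and is abundant in neural progenitors (chromosome 6, 127125162 to 127152193), peaked at E14.5 in both populations. At E10.5 it had 27.4, 23.6, 41.4 and 19.1 CPM in BAM and 95.9, 50.3, 50.2 and 64.2 CPM in microglia. At E11.5 it had 33.1, 20.1 and 35.4 CPM in BAM and 46.3, 39.4 and 32.9 CPM in microglia. At E12.5 it had 268, 87.9 and 84.3 CPM in BAM and 169, 122 and 184 CPM in microglia. BAM lay below microglia without overlap at E10.5, and at E12.5 BAM replicate 1 stood far above the other BAM libraries. At E14.5 Ccnd2 had 308, 277 and 358 CPM in BAM and 271 and 281 CPM in microglia. At E16.5 it had 75.4, 99.3 and 52.5 CPM in BAM and 108, 137 and 70.6 CPM in microglia. The E18.5 libraries had 48.1, 87.4, 92.3 and 131 CPM in BAM and 27.9, 62.2, 39.1 and 59.0 CPM in microglia. The populations overlapped at all stages after E10.5.

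The summed neural markers, like Ccnd2, were highest at E14.5 in both populations. By group means the 2 moved in the same direction at every step in BAM. In microglia they did so at every step but that between E10.5 and E11.5. In microglia the mean neural sum was 120 CPM at E10.5 and 203 CPM at E11.5, while mean Ccnd2 was 65.2 and then 39.5 CPM. In BAM the mean neural sum was 82.8 and then 92.5 CPM, and mean Ccnd2 27.9 and then 29.5 CPM. At E10.5 the neural sums were 62.4 to 119 CPM in BAM and 105 to 144 CPM in microglia. At E12.5 BAM replicate 1, the library with the high Ccnd2, had a neural sum of 1272 CPM, against 317 and 298 CPM in the other BAM libraries of that stage, and microglia had 666 to 956 CPM. At E14.5 the sums were 1068 to 1394 CPM in BAM and 1341 to 1488 CPM in microglia, and at E18.5 they were 325 to 720.5 CPM in BAM and 201 to 362 CPM in microglia. Of the 12 neural markers, 9 were higher and 1 lower at E18.5 than at E10.5 in BAM, 9 were higher and 0 lower in microglia, and as the mean over stages 0 were higher and 1 lower in BAM than in microglia. Of all tested genes, 22.8% were called higher and 14.8% lower over this window in BAM, and 20.9% higher and 14.4% lower in microglia. In the mean over stages, 28.2% were called in either direction. Sox2 was at 0 in all BAM libraries of E11.5, and no other neural marker was at 0 throughout a group. The part of neural RNA in the Ccnd2 values was not tested, and in bulk samples fewer cells of a type and less RNA per cell cannot be told apart. At E10.5, where Ccnd2 was lower in BAM, monocyte markers summed to 8.59 to 15.1 CPM in BAM and 47.9 to 74.2 CPM in microglia, and granulocyte and mast cell markers to 2.26 to 5.09 CPM in BAM and 35.6 to 90.8 CPM in microglia. Of the 8 monocyte markers Chil3 and Ace were at 0 in all E10.5 libraries of both populations, and of the 10 granulocyte and mast cell markers Camp and Mcpt4 were. The part of these cells was not tested.

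**Figure D2:**
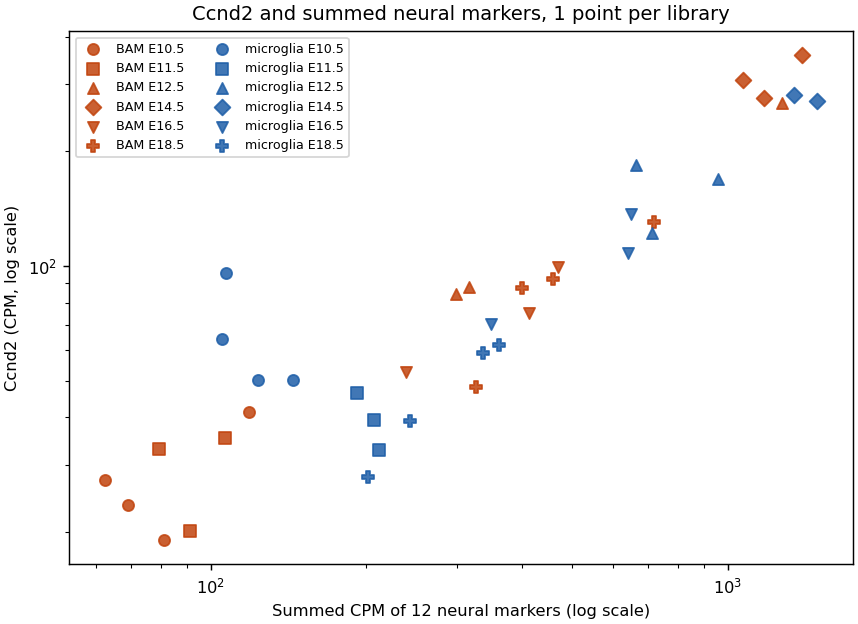
Ccnd2 level (vertical, CPM, log scale) against the summed level of 12 neural markers (horizontal, CPM, log scale), 1 point per library, BAM in orange and microglia in blue, with a marker shape for each stage. The E14.5 libraries of both populations and BAM E12.5 replicate 1 sit together at the top right, with Ccnd2 at 268 to 358 CPM.

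By the test across all genes, Ccnd2 was lower in BAM at E10.5 (log2 -1.24 ± 0.31, adjusted p = 0.0119), a call lost without BAM E10.5 replicate 4 (-1.10) or microglia E10.5 replicate 1 (-0.997). At E18.5 the BAM libraries averaged 89.6 ± 33.8 CPM and the microglia libraries 47.1 ± 16.4 CPM (SD, n = 4 each; log2 0.84 ± 0.31, adjusted p = 0.0615), which missed the threshold but passed it under 5 of the other settings and without BAM E18.5 replicate 1 (1.06) or microglia E18.5 replicate 2 (1.02). Ccnd2 rose in BAM between the ends of the window (log2 1.65 ± 0.31, adjusted p = 6.48e-05), whereas in microglia the value was -0.43 ± 0.31 (adjusted p = 0.29), and the 2 changes differed by 2.08 ± 0.44 (adjusted p = 0.0015). Within series R10 the BAM value was 0.76 (adjusted p = 0.244) and the difference 1.86 (adjusted p = 0.186), and with the library series as a covariate the BAM value was 0.87 (adjusted p = 0.0759). Ccnd2 was higher at E12.5 than at E11.5 by 2.18 ± 0.37 in BAM and 1.86 ± 0.36 in microglia, and in BAM it fell by 1.97 ± 0.36 at E16.5, compared with E14.5. Without BAM E12.5 replicate 1 the BAM step at E12.5 was 1.45 (adjusted p = 0.0292), and with the series as a covariate it was 1.22 in BAM and 0.90 in microglia, neither of them called. That covariate is set by E18.5 alone, the only stage with both series, where each population has 1 library of R10. It therefore cannot tell series from stage well at this step. In microglia Ccnd2 fell by 1.60 ± 0.33 at E18.5, compared with E12.5 (adjusted p = 0.00134).

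Per kilobase of annotated exon, Ccnd3 led the D cyclins at E10.5 and Ccnd1 at E18.5 in both populations, as they did in CPM. By group means per kilobase, Ccnd1 was ahead of Ccnd3 from E11.5 in BAM and from E12.5 in microglia. The stage of this change depended on the annotated length. In CPM, Ccnd3 was still ahead of Ccnd1 in BAM at E11.5 (225 against 158 CPM) and at E12.5 (205 against 189 CPM). In microglia Ccnd3 was still ahead in CPM at E12.5 (143 against 86.7 CPM). Ccnd1 made up 28.2% ± 2.67 of the summed D cyclin level in BAM at E10.5 (SD, n = 4), against 13.1% ± 3.82 in microglia. At E11.5 its share was 53.8% ± 2.65 in BAM and 40.6% ± 3.56 in microglia, and that of Ccnd3 was 41.1% ± 2.66 in BAM and 49.6% ± 1.65 in microglia. At E14.5 Ccnd2 held the largest microglial share (47.7% ± 3.28, n = 2), against 33.3% ± 3.13 in BAM. The summed neural markers were also highest at that stage in both populations. The shares are parts of a common sum, so any Ccnd2 from neural RNA would lower the shares of the other D cyclins. The part of neural RNA in the shares was not tested. At E18.5 the Ccnd1 share was 70.5% ± 6.44 in BAM and 62.0% ± 4.96 in microglia, with 1 microglia library inside the BAM range. The summed D cyclin level at E18.5 was 81.5 ± 8.72 CPM per kb in BAM and 35.5 ± 1.89 CPM per kb in microglia, and at E10.5 it was 54.2 ± 3.14 CPM per kb in BAM and 60.2 ± 10.4 CPM per kb in microglia.

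The 4 shares examined were compared between populations by a permutation test of library labels within stages (two-sided, 100000 resamples, smallest possible p of 1e-05), adjusted over the 4. Averaged over stages, Ccnd1 held 54.4% of D cyclins in BAM and 39.8% in microglia, a difference of 14.6 percentage points (adjusted p = 1.33e-05, permutation). Ccnd2 held 13.9% in BAM and 23.8% in microglia, a difference of -9.90 points (adjusted p = 1.33e-05, permutation). Ccnd3 held 31.7% in BAM and 36.4% in microglia, a difference of -4.73 points (adjusted p = 0.00023, permutation). Without division by exon length, the adjusted p of the Ccnd3 difference was not under 0.05 (permutation). The Ccnd3 difference also depended on the set of libraries. It was -2.43 points within series R8, which spans E12.5 to E18.5 (adjusted p = 0.131, permutation). Within series R10, which holds E10.5, E11.5 and E18.5, it was -8.91 points. Series and stage cannot be told apart here.

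**Figure D3:**
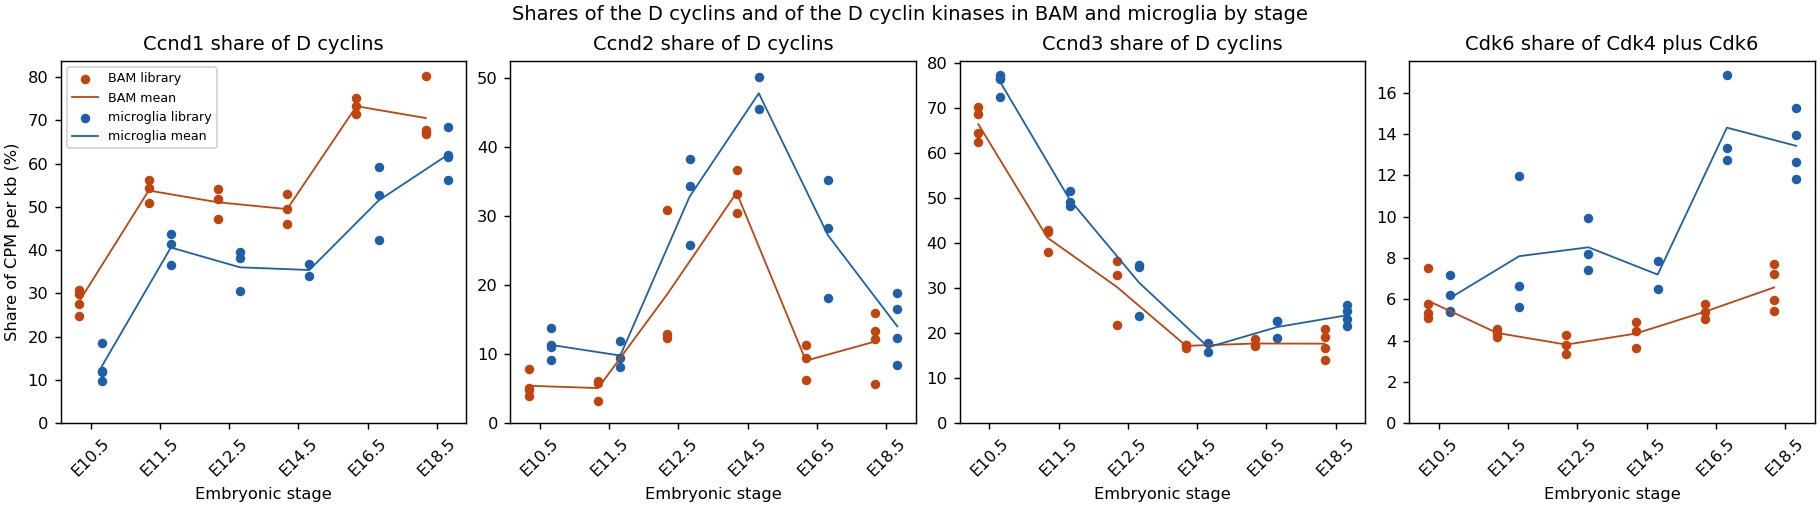
Shares in percent of CPM per kilobase of exon (vertical axes, from 0) by embryonic stage (horizontal axes), for Ccnd1, Ccnd2 and Ccnd3 among the D cyclins and for Cdk6 among Cdk4 plus Cdk6, with 1 point per library and lines through group means, BAM in orange left of microglia in blue. The Ccnd1 share in BAM was above that in microglia in every group mean, and the Cdk6 share in BAM was below it, by the widest margin at E16.5 (5.40% in BAM and 14.3% in microglia).

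Ccne1, which encodes cyclin E1 (chromosome 7, 38097984 to 38107534), fell with age in both populations and ended lower in BAM. At E10.5 it had 54.7, 55.5, 51.0 and 48.6 CPM in BAM and 56.7, 52.0, 52.7 and 52.3 CPM in microglia. At E11.5 it had 55.1, 36.7 and 42.6 CPM in BAM and 40.0, 49.8 and 36.5 CPM in microglia. At E12.5 it had 35.0, 36.3 and 39.03 CPM in BAM and 30.7, 31.5 and 39.7 CPM in microglia. The populations overlapped at each of these stages. At E14.5 it had 21.6, 22.2 and 17.0 CPM in BAM and 32.0 and 24.6 CPM in microglia. At E16.5 it had 16.502, 19.4 and 19.9 CPM in BAM and 23.9, 17.9 and 20.5 CPM in microglia. At E18.5 it had 11.3, 9.77, 10.9 and 14.9 CPM in BAM and 33.8, 17.6, 28.6 and 31.9 CPM in microglia. BAM lay below microglia without overlap at E14.5 and at E18.5, and of the 6 stages only E18.5 was called (log2 -1.37 ± 0.18, adjusted p = 2.55e-07).

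At E18.5, compared with E10.5, Ccne1 fell by 2.19 ± 0.18 in BAM (adjusted p = 1.03e-11) and fell by 0.86 ± 0.17 in microglia (adjusted p = 0.000162), and these changes differed by -1.33 ± 0.25 (adjusted p = 0.000313). Over all libraries, Ccne1 was the only one of the 10 whose change between E12.5 and E18.5 differed between the populations (BAM minus microglia -1.50 ± 0.27, adjusted p = 0.000761, edgeR). These stages share series R8. For Ccnd2 this difference was called without BAM E12.5 replicate 1 (1.68 ± 0.44, adjusted p = 0.0328, edgeR). The Ccne1 contrast was made of -1.61 ± 0.19 in BAM and -0.10 ± 0.19 in microglia, and within series R8 it was -1.34 (adjusted p = 0.0202). Within series R10 the microglial change over the whole window was -0.54 (adjusted p = 0.206). Over all libraries the lower Ccne1 of BAM as a mean over stages lost its call without microglia E14.5 replicate 1 (-0.23, adjusted p = 0.0579).

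Of cell-cycle genes outside the G1 set, 5 of 20 S phase genes and 13 of 20 G2/M genes were called lower in BAM at E18.5. Of all 22061 tested genes, 1930 were called lower there, and 15.4% in either direction. The summed level of 20 S phase genes known as E2F targets, such as Mcm5 and Rrm2, was 2413 to 2563 CPM in BAM and 1744 to 1809 CPM in microglia at E16.5, and 1554 to 2318 CPM in BAM and 2009 to 2669 CPM in microglia at E18.5. For 20 G2/M genes the sums were 1722 to 1895 CPM in BAM and 1345 to 1604 CPM in microglia at E16.5, and 1363 to 1824 CPM in BAM and 1866 to 2340.1 CPM in microglia at E18.5. The S phase sums of the populations overlapped at E18.5, and the G2/M sums did not. At E18.5 0 genes of either list were called higher in BAM. At E16.5 10 S phase genes and 6 G2/M genes were called higher in BAM and 0 lower. Of all 22061 tested genes, 1564 were called higher and 1488 lower there, and 13.8% in either direction. The medians at E18.5 were -0.268 for S phase and -0.561 for G2/M genes, against 0.0133 over all tested genes. The part of a differing share of cycling cells in the Ccne1 difference was not tested.

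Of the D cyclin kinases, Cdk4 fell with age in both populations, whereas Cdk6 fell in BAM alone and its change differed between the populations. Their promoters are shown because the kinases serve the same cyclins while their levels diverged; the sequences are from RefSeq (GRCm38.p6, plus strand), run from 250 bases before the RefSeq start up to the next base that an annotated exon covers (249 bases for Cdk4 and 89 for Cdk6), and have the E-box CACGTG, a palindrome read on both strands and bound among others by Myc, in capitals.
Cdk4 (chr10:127063285-127063533): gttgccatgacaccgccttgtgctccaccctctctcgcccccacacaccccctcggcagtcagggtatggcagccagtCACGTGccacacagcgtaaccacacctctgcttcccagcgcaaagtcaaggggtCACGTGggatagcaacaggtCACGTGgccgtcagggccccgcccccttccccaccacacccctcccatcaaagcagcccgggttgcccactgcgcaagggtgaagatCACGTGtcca
Cdk6 (chr5:3343643-3343731): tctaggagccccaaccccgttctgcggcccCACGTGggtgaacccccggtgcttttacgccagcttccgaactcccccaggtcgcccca
The annotated Cdk6 gene starts upstream of its stretch, which lies in an intron of a transcript from that earlier start. The Cdk4 stretch held 4 matches and the Cdk6 stretch 1. Among 32851 RefSeq windows of the same 250 bases, 6.02% held at least 1 match and 0.0213% held at least 4. RefSeq windows were at hand for 7 of the 10 genes (all but Ccnd1, Ccnd2 and Rb1), and the windows of Ccnd3, Ccne1, Cdkn1a, Cdkn1b and Cdkn2c held 0 matches. The E2F motif, searched as TTTCGCGC or TTTGGCGC on both strands, was matched in 0 of these windows and in 0.654% of all. A match describes the letters and is not shown to be a bound site.

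Cdk4 (chromosome 10, 127063534 to 127067920) had the highest level per kilobase of the 10 genes, at 136 CPM per kb in BAM and 124 CPM per kb in microglia as means of stage means. E10.5 libraries had 406, 603, 664 and 604 CPM in BAM and 485, 514, 579 and 599 CPM in microglia. At E18.5 it had 237, 274, 282 and 304 CPM in BAM and 288, 268, 267 and 296 CPM in microglia. Within each population no E18.5 library reached the lowest E10.5 library, and the populations overlapped at both stages. BAM libraries lay above all microglia libraries at E11.5, E12.5 and E16.5, where BAM averaged 519, 509 and 344 CPM and microglia 418, 430.2 and 297 CPM. At E18.5, compared with E10.5, Cdk4 fell by 1.08 ± 0.14 in BAM (adjusted p = 1.31e-07) and fell by 0.90 ± 0.14 in microglia (adjusted p = 3.21e-06), and the difference between these changes was -0.18 ± 0.20 (adjusted p = 0.748). Within series R10 the values were -1.29 in BAM (adjusted p = 0.0134) and -0.80 in microglia (adjusted p = 0.117). BAM against microglia was called for Cdk4 at 0 of the 6 stages, with differences from -0.13 to 0.28 and adjusted p-values of at least 0.346 in edgeR. Over all libraries, unadjusted p was under 0.05 at 0 of the 6 stages, and DESeq2 called 0. Within series R8 the E16.5 difference was called (0.33, adjusted p = 0.0174, edgeR). The microglial fall at E18.5, compared with E12.5, was not called by edgeR over all libraries. It was called within series R8 (-0.53, adjusted p = 0.00126, edgeR) and by DESeq2 (-0.48, adjusted p = 0.0151). RLE factors, counts divided by 2 and a fit of only the compared groups called it too. Exons of Cdk4 share 641 bases (19.7%) with Tspan31 on the opposite strand.

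Cdk6 (chromosome 5, 3341485 to 3531008) overlapped between the populations at E10.5 and separated from E11.5 onwards. At E10.5 it had 142, 139, 162 and 159 CPM in BAM and 162, 128, 142 and 171 CPM in microglia. At E11.5 it had 104, 97.9 and 105 CPM in BAM and 148, 129.5 and 157 CPM in microglia. At E12.5 it had 83.2, 92.2 and 83.6 CPM in BAM and 199, 169.9 and 148 CPM in microglia. After the overlap at E10.5, every BAM library lay below every microglia library. At E14.5 it had 77.8, 74.9 and 96.4 CPM in BAM and 140.5 and 159 CPM in microglia. At E16.5 it had 92.8, 80.8 and 80.3 CPM in BAM and 234, 202 and 202 CPM in microglia. The E18.5 values were 79.7, 74.8, 101 and 74.9 CPM in BAM and 179.6, 208, 187 and 171 CPM in microglia. The same order without overlap held at these later stages. The log2 difference was -0.02 ± 0.11 at E10.5, -0.52 ± 0.13 at E11.5, -0.98 ± 0.13 at E12.5, -0.79 ± 0.15 at E14.5, -1.28 ± 0.13 at E16.5 and -1.27 ± 0.12 at E18.5, and all but the first were called; fitted without the other groups, the E11.5 difference was -0.51 (adjusted p = 0.0597).

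Most of the BAM loss of Cdk6 lay in the first step, where it fell by 0.54 ± 0.12 at E11.5 (adjusted p = 0.00772, and 0.0546 without the other groups in the fit), and at E18.5 it was -0.89 ± 0.11 relative to E10.5, while E18.5 over E12.5 was -0.02 ± 0.12 (adjusted p = 0.981). In microglia Cdk6 was higher at E18.5 than at E10.5 by 0.37 ± 0.11 (adjusted p = 0.0116), a small change whose call was lost under 5 other settings and without any 1 of 3 libraries, microglia E10.5 replicate 2, E10.5 replicate 3 or E18.5 replicate 2. The median of all tested genes in that comparison was 0.292, close to the Cdk6 value. The microglial step between E14.5 and E16.5 was 0.61 ± 0.15 (adjusted p = 0.0398), and its call was lost when any 1 of the 5 libraries was left out. The difference between the populations' changes was -1.26 ± 0.16 (adjusted p = 9.62e-07), and -1.32 within series R10 (adjusted p = 0.0123). Cdk6 made up 5.94% ± 1.10 of Cdk4 plus Cdk6 per kilobase in BAM and 6.06% ± 0.850 in microglia at E10.5, and 6.58% ± 1.07 in BAM and 13.4% ± 1.52 in microglia at E18.5. Over the stages the shares averaged 5.07% in BAM and 9.60% in microglia (difference -4.53 points, adjusted p = 1.33e-05, permutation).

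**Figure D4:**
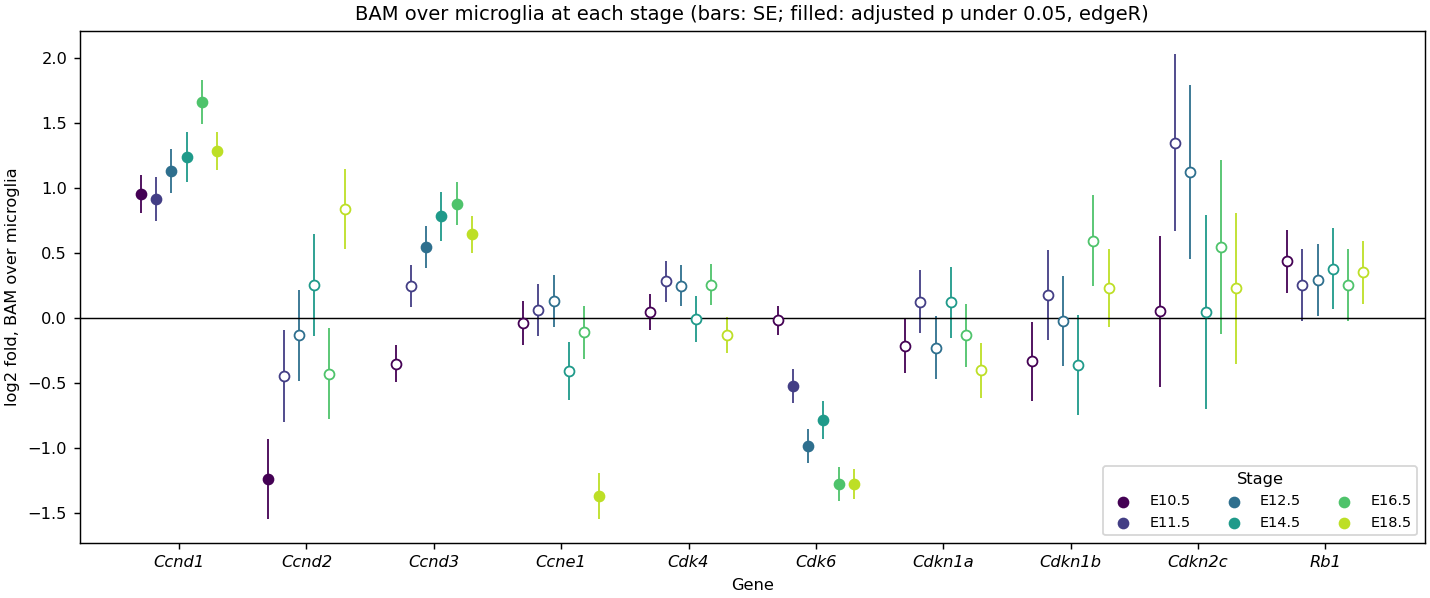
Log2 fold of BAM over microglia (vertical) for each of the 10 genes (horizontal), with 1 point per stage in order from E10.5 to E18.5, bars of 1 SE, and filled points where the adjusted p was under 0.05 (edgeR). Ccnd1 was above 0 at all 6 stages, between 0.92 and 1.66, and Cdk6 went down to -1.28 at E16.5.

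Of the inhibitors, Cdkn1a, which encodes p21 and is induced among others by p53 (chromosome 17, 29090979 to 29100722), rose with age in both populations. At E10.5 Cdkn1a had 20.5, 20.3, 27.2 and 36.1 CPM in BAM and 32.0, 26.2, 28.2 and 32.8 CPM in microglia. At E18.5 it had 53.1, 78.2, 93.5 and 56.9 CPM in BAM and 85.2, 76.6, 115 and 68.5 CPM in microglia. Within each population every E18.5 library lay above every E10.5 library, and the populations overlapped at both stages and at the 4 between. E18.5 was above E10.5 by 1.41 ± 0.21 in BAM (adjusted p = 2.06e-06) and by 1.60 ± 0.21 in microglia (adjusted p = 2.67e-07), and above E12.5 by 1.04 ± 0.23 in BAM and 1.21 ± 0.23 in microglia. The difference between the changes over the whole window was -0.19 ± 0.30 (adjusted p = 0.87). Within series R10 the change was 1.00 in BAM and 1.64 in microglia, both called, and within series R8 E18.5 over E12.5 was 1.13 in BAM and 1.16 in microglia, both called.

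Cdkn1b, which encodes p27 (chromosome 6, 134920401 to 134925513), and Cdkn2c, which encodes p18 (chromosome 4, 109660876 to 109667189), had the fewest counts of the 10 genes. Cdkn1b ran from 5.65 to 23.1 CPM over the BAM libraries and from 6.54 to 18.7 CPM over the microglia libraries. At E18.5 it had 23.1, 5.65, 20.2 and 16.3 CPM in BAM, with replicate 2 below every E10.5 BAM library, and at E10.5 it had 5.98, 8.60, 7.86 and 9.21 CPM in BAM. The BAM change of 1.02 ± 0.30 was called (adjusted p = 0.00808) and lost its call without BAM E18.5 replicate 1 (0.76) or with no other groups in the fit (adjusted p = 0.0621), while the microglial value was 0.45 ± 0.30 (adjusted p = 0.253) and the difference between the changes 0.56 ± 0.43 (adjusted p = 0.555). BAM libraries of Cdkn1b lay below all microglia libraries at E14.5 and above them at E16.5, with neither difference called. Cdkn2c ran from 2.82 to 54.8 CPM in BAM and from 1.88 to 30.5 CPM in microglia, with its lowest library in each population at E10.5. BAM libraries of Cdkn2c lay above all microglia libraries at E11.5, not called, and overlapped with them at the other stages. Its libraries spread widely within groups, as at E12.5, with 15.5, 32.9 and 54.8 CPM in BAM and 6.22, 12.1 and 30.5 CPM in microglia. With 1 coefficient per group, Cdkn2c was called by edgeR in 0 of the comparisons, with an unadjusted p under 0.05 in 1 of them, the mean over stages, and by DESeq2 in 0. Its standard errors at single stages, up to 0.75, leave a 2-fold difference within 2 standard errors. In an edgeR fit with a block of adjacent library numbers, a pairing hinted at by names only, it was called higher in BAM. This held for the mean over stages (0.51, adjusted p = 0.00517), at E11.5 (1.22, adjusted p = 0.0206) and at E12.5 (1.21, adjusted p = 0.0155). Without blocks, the nearest to a call was the mean over stages (log2 0.56 ± 0.27, adjusted p = 0.129), which passed the threshold without microglia E12.5 replicate 3 (0.72).

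Rb1, the target of the D cyclin kinases (chromosome 14, 73183673 to 73325822), had the smallest ratio of highest to lowest stage mean of the 10 genes, at 1.33 in BAM and 1.44 in microglia, with stage means from 35.1 to 46.6 CPM in BAM and from 25.6 to 37.0 CPM in microglia. At E12.5 it had 40.3, 39.2 and 40.5 CPM in BAM and 29.8, 33.4 and 35.4 CPM in microglia, the only stage at which the libraries did not overlap. The BAM mean was above the microglia mean at all 6 stages, by log2 0.25 to 0.44, but no single stage was called. The called mean over stages fell short of the threshold without BAM E11.5 replicate 1 (0.29, an adjusted p at the threshold). The mean over E12.5 to E18.5 within series R8 also fell short (0.24, adjusted p = 0.0509, edgeR). Over E10.5, E11.5 and E18.5 within series R10 the mean was 0.70, not called. Exons of Rb1 share 488 bases with Rcbtb2 and 408 with Lpar6 on the opposite strand.

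Counted by comparison, BAM against microglia was called for 2 of the 10 genes at E10.5 (background 4.48% of tested genes), 2 at E11.5 (6.66%), 3 at E12.5 (8.54%), 3 at E14.5 (7.18%), 3 at E16.5 (13.8%) and 4 at E18.5 (15.4%). Ccnd1 was among them each time, joined by Ccnd2 at E10.5, by Cdk6 from E11.5, by Ccnd3 from E12.5 and by Ccne1 at E18.5. Between E18.5 and E10.5, 8 genes were called in BAM (background 37.6%), 4 higher (Ccnd1, Ccnd2, Cdkn1a and Cdkn1b; background 22.8%) and 4 lower (Ccnd3, Ccne1, Cdk4 and Cdk6; background 14.8%). In microglia 6 were called (background 35.3%), 3 higher (Ccnd1, Cdk6 and Cdkn1a; background 20.9%) and 3 lower (Ccnd3, Ccne1 and Cdk4; background 14.4%). The median log2 change of the 10 was 0.428 in BAM and 0.326 in microglia, where all tested genes had medians of 0.291 in BAM and 0.292 in microglia. Between E18.5 and E12.5, 5 were called in BAM (background 10.6%) and 3 in microglia (background 6.74%).

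**Figure D5:**
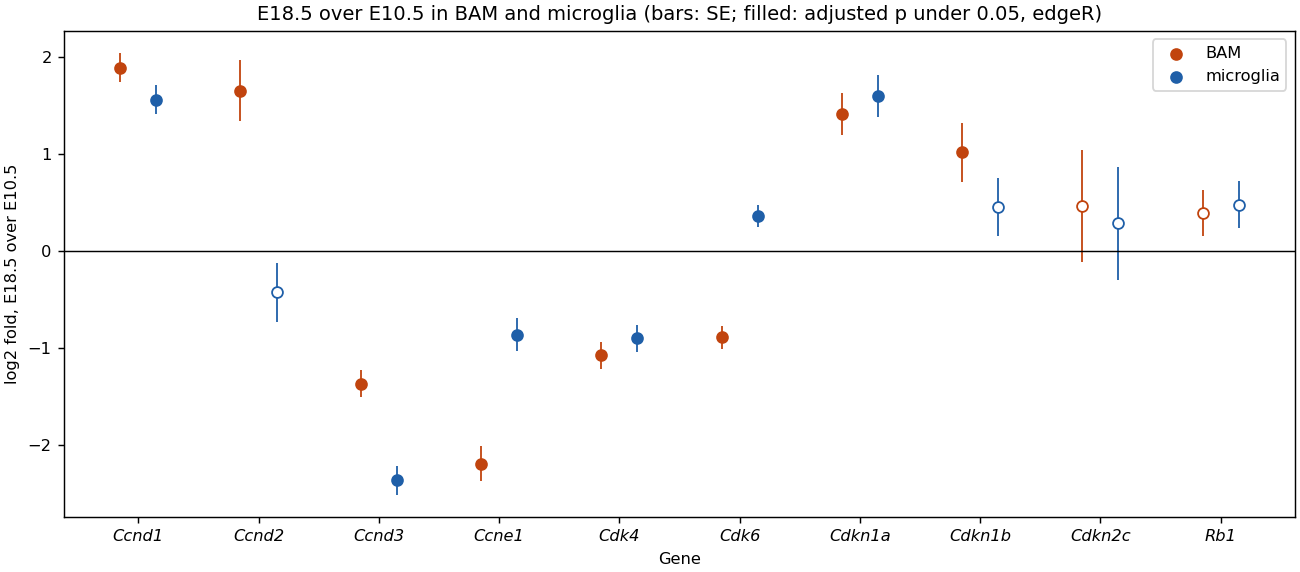
Log2 fold of E18.5 over E10.5 (vertical) for the 10 genes (horizontal), BAM in orange left of microglia in blue, with bars of 1 SE and filled points where the adjusted p was under 0.05 (edgeR). Cdk6 lies at -0.89 in BAM and 0.37 in microglia, on opposite sides of 0.

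The test for a difference between the populations in the change over the whole window called 4 of the 10 genes, Ccnd2, Ccnd3, Ccne1 and Cdk6 (background 6.63%), and that for the change since E12.5 called 1, Ccne1 (background 2.19%). The same 4 were called by the test of all population-by-stage terms together (background 6.48%), with Cdk6 at the largest F (16.8). Within series R8 that last test, which then spans E12.5 to E18.5, called 0 of the 10. Over all genes it called 369 there, against 1429 over all libraries. Ccne1 had an adjusted p of 0.0625 in it (edgeR). Step by step, BAM had 2 genes called between E11.5 and E10.5 (Ccnd1 and Cdk6; background 4.42%), 1 between E12.5 and E11.5 (Ccnd2; 4.79%), 1 between E14.5 and E12.5 (Ccne1, -0.87 ± 0.20; 0.784%), 1 between E16.5 and E14.5 (Ccnd2; 0.997%) and 0 between E18.5 and E16.5 (0.068%). Microglia had 2 called in the first step (Ccnd1 and Ccnd3; 8.26%), 2 in the second (Ccnd2 and Ccnd3; 12.1%), 0 between E14.5 and E12.5 (0.0181%), 1 between E16.5 and E14.5 (Cdk6; 0.802%) and 0 between E18.5 and E16.5 (0.517%). For the steps with 0 called by edgeR, unadjusted p was under 0.05 for 2 genes in BAM between E18.5 and E16.5 (Ccne1 and Cdk4), for 1 in microglia between E14.5 and E12.5 (Ccnd3) and for 2 in microglia between E18.5 and E16.5 (Ccnd2 and Ccne1), and DESeq2 called 0, 0 and 1 (Ccnd2). The BAM call of Ccne1 between E14.5 and E12.5 was lost without any 1 of 5 of the 6 libraries, all but BAM E12.5 replicate 1.

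Other genes of the G1 to S passage were read from a list of 28 (27 tested). As the mean over stages, 5 were higher, 6 lower and 16 not called in BAM, against 28.2% of all tested genes called, with a median of 0.0337 against -0.0235 for all tested genes. The members with the smallest p were Cdc25a, a phosphatase that activates Cdk2 (-0.58 ± 0.08), and the E2F factors E2f1 (0.55 ± 0.08), E2f2 (-0.96 ± 0.17) and E2f5 (0.68 ± 0.13). At E18.5, 1 was higher, 8 lower and 18 not called in BAM, against 15.4% of all tested genes called, among the lower ones Ccne2, the second E cyclin (-0.74 ± 0.23, adjusted p = 0.0208), and Myc, a factor that binds E-boxes (-0.60 ± 0.19, adjusted p = 0.0295). Between E18.5 and E10.5, 4 were higher, 15 lower and 8 not called in BAM (median -0.620), and 0 were higher, 12 lower and 15 not called in microglia (median -0.449). Of all tested genes, 22.8% were called higher and 14.8% lower over this window in BAM, and 20.9% higher and 14.4% lower in microglia. Ccna2, the S phase cyclin A2, fell by 1.69 ± 0.13 in BAM and 1.27 ± 0.12 in microglia, and Tfdp1, the partner of E2F factors, by 1.63 ± 0.17 in BAM and 1.68 ± 0.17 in microglia. All 20 S phase E2F targets were lower at E18.5 than at E10.5 in both populations, and so were 19 of 20 G2/M genes in each, while the members of the G1 set moved both ways.

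Beside Cdkn1a, 18 genes of p53 and its targets were counted. Between E18.5 and E10.5, 4 were higher, 7 lower and 7 not called in BAM, where 22.8% of all tested genes were called higher and 14.8% lower. In microglia 2 were higher, 6 lower and 10 not called, where 20.9% of all tested genes were called higher and 14.4% lower. The targets moved both ways. Pmaip1, an inducer of apoptosis, fell by 2.16 ± 0.21 in BAM and 1.71 ± 0.21 in microglia, and Sesn2, a stress-induced inhibitor of growth signalling, by 2.17 ± 0.20 in BAM and 1.34 ± 0.20 in microglia. Btg2, an antiproliferative gene, was higher by 1.12 ± 0.27 in BAM (adjusted p = 0.00114) and 1.81 ± 0.27 in microglia (adjusted p = 2.33e-06), and Trp53inp1, which encodes a p53-induced nuclear protein, by 1.47 ± 0.42 in BAM (adjusted p = 0.00596) and 1.12 ± 0.42 in microglia (adjusted p = 0.0352). Trp53 itself, which encodes p53, fell by 0.76 ± 0.11 in BAM and 0.55 ± 0.11 in microglia. The change of Mdm2 was -0.63 ± 0.13 in BAM and -0.42 ± 0.13 in microglia, and that of Sesn1 -0.43 ± 0.16 in BAM and -1.21 ± 0.16 in microglia. For Plk2 it was 0.61 ± 0.23 in BAM and -1.69 ± 0.24 in microglia. Between populations, as the mean over stages, 4 were higher, 6 lower and 8 not called in BAM, against 28.2% of all tested genes called, with the kinase gene Plk2 (1.96 ± 0.11), the sestrin Sesn1 (1.18 ± 0.07) and the death receptor Fas (2.10 ± 0.27) higher and Btg2 (-1.46 ± 0.12) lower.

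Genes whose pattern over the 12 group means was most like that of each member were named by Pearson correlation of log2(CPM + 1), among 7723 genes whose log2 CPM averaged 4 or more, as a description over means that share stage and population. For Ccnd1 these were Sbf2 (r = 0.986) and Hfe (r = 0.981), for Ccnd2 Mn1 (r = 0.972) and Kdm5b (r = 0.968), and for Ccnd3 Asns (r = 0.987) and Tcof1 (r = 0.985). For Ccne1 they were Zw10 (r = 0.98) and Rangap1 (r = 0.978). For the kinases they were Ranbp1 (r = 0.974) and Cks1b (r = 0.968) beside Cdk4, and Dusp16 (r = 0.981) and Icam1 (r = 0.971) beside Cdk6. For Cdkn1a they were Uvssa (r = 0.966) and Clk4 (r = 0.962), and for Rb1 Sema6d (r = 0.962) and Rasal2 (r = 0.961). The best matches of Cdkn1b, Zfp319 (r = 0.868), and of Cdkn2c, Cchcr1 (r = 0.886), were looser. Cks1b, a small partner of cyclin-dependent kinases, fell with Cdk4 over the window, by 1.80 ± 0.18 in BAM and 1.18 ± 0.18 in microglia.

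In order of level per kilobase, averaged over stages, Cdk4 led in both populations, followed in BAM by Ccnd1 (43.5 CPM per kb), Ccnd3 (22.0) and Cdkn1a (20.3), and in microglia by Cdkn1a (22.6), Ccnd3 (18.47) and Ccnd1 (18.1). Cdkn1b was lowest in both, at 2.78 CPM per kb in BAM and 2.67 CPM per kb in microglia. At E18.5 the summed level of the 3 inhibitors was 40.8 ± 10.6 CPM per kb in BAM and 46.0 ± 10.7 CPM per kb in microglia, and at E10.5 it was 17.4 ± 4.36 CPM per kb in BAM and 19.3 ± 1.63 CPM per kb in microglia. The sum of Cdk4 and Cdk6 at E18.5 was 90.4 ± 8.61 CPM per kb in BAM and 99.4 ± 3.48 CPM per kb in microglia, and at E10.5 it was 186 ± 35.1 CPM per kb in BAM and 178 ± 17.0 CPM per kb in microglia. At E18.5 the D cyclin sum per kilobase thus stood near the kinase sum in BAM and below it in microglia. These sums rest on annotated exon lengths and were not tested.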

How the data were processed

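RNA of sorted BAM and microglia was sequenced at 6 embryonic stages, giving 39 libraries in 12 groups. The deposited table holds whole-number counts per gene and library, made from paired-end reads with STAR and featureCounts on GRCm38, per the submitters' processing notes; versions and strand settings are not given in the sources used here. Even counts were more frequent than odd ones (49977 values of 2, 21280 values of 1), so intervals from counts would be too narrow and none is given. The deposited gene length, an annotation column of the table with no sample, gave CPM per kilobase; promoter sequences are RefSeq's.

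Genes were filtered with filterByExpr, which left 22061 with 99.973% of the counts, scaled by TMM and fitted in edgeR 4.0.16 (R 4.3.3) with 1 coefficient per group, quasi-likelihood tests and Benjamini-Hochberg adjustment over all tested genes; a gene was called at an adjusted p under 0.05. The standard error is the log2 change divided by the square root of F. The fit was tested on simulated data. Comparisons set BAM against microglia per stage and over the stages' mean, stages against each other within a population, and the populations' changes with each other. CPM use raw library totals, from 10.7 to 47.2 M counts, and TMM factors entered the fits only. Shares were compared with a permutation test in scipy 1.17.1 and numpy 2.4.6. Alternatives were RLE factors, no filter, counts divided by 2, the library series as a covariate, only the compared groups, each series alone, a block of adjacent library numbers, DESeq2 1.42.0, and each library left out in turn. With each series alone, the mean over stages covers E12.5 to E18.5 in R8 and E10.5, E11.5 and E18.5 in R10.

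The members and lists were chosen with earlier results of these data known. All 10 members are described; from the other lists, up to 4 called genes with the smallest p in the mean over stages and in E18.5 against E10.5 are named, and per member the genes with the most similar pattern. Myc and Ccne2 at E18.5, and Btg2 and Trp53inp1 over the window, were named after their values were seen.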

Additional observations from a re-analysis of the deposited data

Results flagged for a closer look

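At E10.5 the 4 microglia libraries had Ccne1 close together except replicate 1, whose 56.7 CPM stood far from the other 3 for so tight a group. It was the only one found among 40 groups of 4 libraries examined over the 10 genes, and chance flags about 1 in 20 such groups.

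Between E18.5 and E10.5 the change differed between BAM and microglia for 4 of the genes by a test of the difference itself in edgeR. The BAM minus microglia difference was 2.08 for Ccnd2, 1.00 for Ccnd3, -1.33 for Ccne1 and -1.26 for Cdk6 on the log2 scale. For the change between E18.5 and E12.5 the difference was called for Ccne1, at -1.50. In the test of all population-by-stage terms, F was 5.01 for Ccnd2, 9.21 for Ccnd3, 9.61 for Ccne1 and 16.8 for Cdk6. Of these, the call of Ccnd2 was lost when any 1 of 6 single libraries was left out: BAM E10.5 replicate 2 or 4, BAM E18.5 replicate 4, microglia E10.5 replicate 1, or microglia E18.5 replicate 1 or 3.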

How the results depend on the processing

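Of the 1051 alternative values of gene differences called over all libraries, 0 changed sign. Of the 2619 values of differences not called, 162 did and 0 of these were called, among them the Ccnd2 mean over stages (range -0.34 to 0.15) and Cdkn2c in microglia E18.5 against E10.5 (range -1.04 to 0.67). Members called moved from 5 to 3 for the mean over stages, from 6 to 3 for microglia E18.5 against E10.5 and from 4 to 2 for the difference between populations in that change within series R10, where the lone E18.5 library per population takes its spread from the other groups. Within series R8 they moved from 4 to 0 for the population-by-stage terms, and to 2 in both E16.5 against E14.5 steps. With only the compared groups fitted, 1 was called in BAM against microglia at E11.5, in microglia E12.5 against E11.5 and in BAM E11.5 against E10.5, 0 in BAM E14.5 against E12.5 and 2 in BAM E16.5 against E14.5. With the series as a covariate, E12.5 against E11.5 had 0 called in both populations. RLE factors gave 1 in microglia E12.5 against E11.5 and 0 in E16.5 against E14.5, and counts divided by 2 gave 0 in that last step. With no filter 1 was called in microglia E18.5 against E16.5 and 2 in BAM E14.5 against E12.5; DESeq2 gave 1 and 2 there, and 3 in microglia E16.5 against E14.5. The Ccnd3 share differed by -2.19 points without division by length (adjusted p = 0.14, permutation) and by -2.43 points within series R8 (adjusted p = 0.131, permutation). The cause of these changes was not tested.

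Leaving out 1 library at a time, the members called ranged from 4 to 6 for the mean over stages, 1 to 2 at E10.5, 2 to 3 at E12.5 and at E14.5, 4 to 5 at E18.5, 7 to 9 for BAM and 5 to 6 for microglia in E18.5 against E10.5, 1 to 2 for the difference since E12.5, 3 to 4 for the population-by-stage terms, 1 to 2 in microglia E12.5 against E11.5, 0 to 1 in microglia E14.5 against E12.5 and E18.5 against E16.5, 0 to 0 in microglia E16.5 against E14.5, and 0 to 2 in BAM E14.5 against E12.5. Over single genes, 2346 of 2390 values kept their side of the threshold, 34 lost a call and 10 gained one.

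The labels carry no replicate numbers, so no pairing is stated. A fit with a block of adjacent library numbers (19 pairs, correlation of deviations from 0 to 0.194, median 0.074, 6 over 0.1) is a hint from names only; it kept 74 of 80 values on their side, gained 5 calls and lost that of Rb1 for the mean over stages. The calls gained were Cdkn2c for the mean over stages (0.51, adjusted p = 0.00517), at E11.5 (1.22, adjusted p = 0.0206) and at E12.5 (1.21, adjusted p = 0.0155), Ccnd3 at E10.5 (-0.34, adjusted p = 0.0209) and Ccnd2 at E18.5 (0.82, adjusted p = 0.0121), in edgeR.

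Over all genes, calls within series R10 were 1725 against 6229 for the mean over stages, 2864 against 8295 for BAM and 2515 against 7788 for microglia in E18.5 against E10.5, 812 against 3408 at E18.5, 603 against 989 at E10.5, 936 against 1470 at E11.5 and 365 against 1463 for the difference. The series covariate left 57 of 2665 calls in microglia and 12 of 1057 in BAM for E12.5 against E11.5. DESeq2 called 1611 at E10.5, 791 against 483 for the difference since E12.5 and 2427 against 1429 for the population-by-stage terms, where series R8 gave 369. Only the compared groups gave 524 at E10.5 and 929 at E11.5. Single libraries took the count at E14.5 to 827 (without microglia E14.5 replicate 1) against 1584, E18.5 against E12.5 to 699 (without microglia E12.5 replicate 3) against 1488 in microglia and 1527 (without BAM E12.5 replicate 3) against 2330 in BAM, and their difference to 312. The steps ranged from 1025 to 1061 against 1822, 0 to 53 against 4, 8 to 521 against 177 and 3 to 490 against 114 in microglia from E11.5, E14.5, E16.5 and E18.5, and from 358 to 1731 against 976, 6 to 445 against 173, 95 to 576 against 220 and 0 to 48 against 15 in BAM, over the settings that moved them. Cdkn1b and Cdkn2c had the fewest counts, with medians of 236 and 258 per library, and dividing all counts by 2 changed no call of either.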
